A study of Homo sapiens with 12 samples.

Results

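Exonic ARID1A regions away from promoters are stretches of the genome that both ARID1A antibodies marked, that lie outside the start of every protein-coding transcript, and whose midpoint falls in an exon. They were selected on the ARID1A data themselves: a region of the Abcam list on chromosomes 1 to 22 or X was kept where it overlapped a region of the CST list by at least 1 bp, did not overlap 1 kb on either side of any protein-coding transcription start site (TSS) in GENCODE 44, and had its midpoint inside an exon of a protein-coding transcript. There were 433 such regions, out of 37501 Abcam regions, 28609 shared regions and 21378 shared regions away from promoters. They made up 2.03% (95% exact binomial interval 1.84 to 2.22) of the shared regions away from promoters, and the others had their midpoint in an intron (8958) or between genes (11987). A further 2452 shared regions had an exonic midpoint but touched a promoter window and are not described here.

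CUT&RUN, in which an antibody guides a nuclease to release the DNA fragments beneath a protein or histone mark, was carried out in RT112, a cell line of human transitional cell carcinoma of the bladder, which the study treats as wild type for ARID1A. The 12 samples form 4 groups of 3 replicates, all of untreated RT112 cells, which differ only in the antibody: ARID1A from Abcam, ARID1A from Cell Signaling Technology (CST), H3K4me3 or IgG. Cells were grown in DMEM with 10% FBS, and per the methods aliquots were frozen and thawed before use. Whether replicates were separate cultures is not stated, and no library from cells without ARID1A was analysed here, so the specificity of the ARID1A antibodies was not tested.

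The replicates of each antibody had been merged by the authors into 1 list of positions, with 37653 regions for Abcam, 33091 for CST and 9779 for H3K4me3, and IgG was not analysed here. The lists carry no signal and no counts, so the depth is unknown, no replicate error could be given and a region is either present or absent. Intervals below are 95% exact intervals that cover counting error alone and treat regions as independent. P-values compare regions of merged lists from a single cell line, and do not measure the spread between cultures.

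ARID1A is a DNA-binding subunit of the canonical BAF form of SWI/SNF, a complex that uses ATP to move or evict nucleosomes and that is best known at promoters and enhancers. An exon is a stretch kept in the mature RNA, and it can be coding or belong to the 5′ or 3′ untranslated region (UTR), of which the 3′ UTR usually lies in the last exon. H3K4me3 is a histone mark of active promoters, so its overlap serves as a readout that the selection did not use. A region is far wider than most exons, and an exonic midpoint does not place the protein on the exon itself.

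Coding exons can carry the short words that transcription factors bind, and AP-1, the FOS and JUN family of factors that often marks enhancers in epithelial cells, has the word TGACTCA, which reads TGAGTCA on the other strand. That word lay in the central 300 bp of 101 of the 433 regions (23.3%), against 26.7% of intronic and 26.1% of intergenic regions. Of the 149 coding regions 31 held it (20.8%). In 15 coding regions on the chromosomes used for sequences a copy lay inside coding sequence, a count for which no background was computed. The 6 widest of these 15 are shown because in them the protein-coding letters themselves spell the word. Each line gives 30 bases of the coding strand of the hg38 reference, 5′ to 3′, with the AP-1 word in capitals.
SUCO, chr1:172588917-172588946, plus strand, exon 18 of 24: tcaccctggttTGAGTCAgagacacaaata
TBC1D1, chr4:38049767-38049796, plus strand, exon 11 of 22: agcaaacacccTGAGTCActtccccatcga
RBM44, chr2:237818117-237818146, plus strand, exon 3 of 16: caaaacactgcTGACTCAgccttagatttt
TEX46, chr1:23010935-23010964, minus strand, exon 3 of 3: aatgaggaggcaTGAGTCAatttgccccac
AKAP10, chr17:19958224-19958253, minus strand, exon 4 of 15: cacagttgtttaTGACTCAttcagaaggaa
DMXL2, chr15:51450190-51450219, minus strand, exon 43 of 44: gttccaggcccaTGACTCAgctattaaggc

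In these 6 regions the word lay within 63 bp of the midpoint of the Abcam region, and nearest in AKAP10, an anchoring protein for protein kinase A, at 13 bp. These distances were bounded by the choice, which took the copy nearest the midpoint within the central 300 bp. They do not show that the word gathers at the midpoint. The AKAP10 region spanned 1165 bp in the Abcam list and 1070 bp in the CST list, around an exon of 558 bp. DMXL2, a large WD-repeat protein, had a 1001 bp region around an exon of 218 bp, 72406 bp from the nearest protein-coding TSS. TBC1D1, a Rab GTPase-activating protein, had a 1548 bp region 3169 bp from such a TSS. None of the 6 regions overlapped H3K4me3. A match of letters describes the sequence and does not show that AP-1 was bound there.

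Most regions lay at the 3′ end of genes, and so does most exon sequence. The midpoint was in a last exon in 285 regions (65.8%, 61.1 to 70.3), in an internal exon in 139 (32.1%), in the exon of a single-exon transcript in 7 and in a first exon in 2. Of the 68.0 Mb of exon sequence outside the promoter windows, 64.2% is in last exons, 33.6% in internal exons, 1.64% in single exons and 0.59% in first exons. The shares of regions and of sequence by exon order therefore lay within counting error of each other. First exons are rare in both because the promoter windows cover nearly all of them.

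By coding state the regions leaned to untranslated sequence. A coding midpoint was found in 149 regions (34.4%, 29.9 to 39.1), against 41.7% of exon sequence. The 3′ UTR held 265 midpoints (61.2%, 56.4 to 65.8), against 56.6% of sequence, which lies at the lower end of that interval. The 5′ UTR held 19 (4.39%, 2.66 to 6.77), against 1.73% of sequence. Per Mb of sequence this came to 5.25 midpoints in coding exons (4.44 to 6.17), 6.89 in 3′ UTRs (6.08 to 7.77) and 16.1 in 5′ UTRs (9.7 to 25.2). These values describe where the selected regions fell, since the ARID1A lists themselves chose them, and they carry no test.

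**Figure D1:**
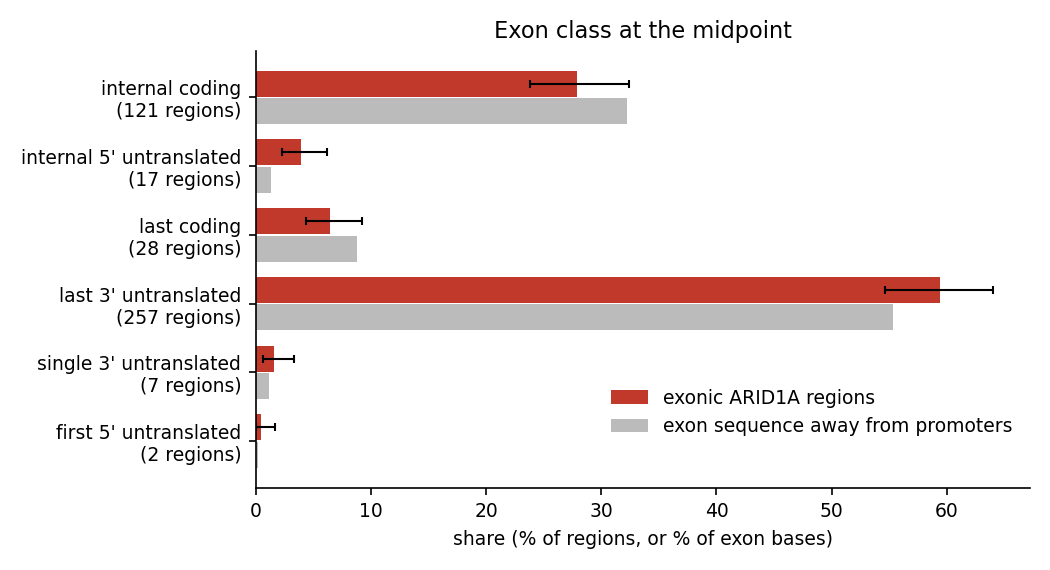
Share of the 433 exonic ARID1A regions whose midpoint lay in each class of exon (red, with 95% exact binomial intervals) beside the share of exon sequence away from promoters in that class (grey). Last-exon 3′ UTRs held 59.4% of regions and 55.3% of sequence, and internal 5′ UTR exons held 3.93% of regions and 1.33% of sequence.

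The largest class, the 3′ UTR of last exons, held 257 regions. Those exons had a median length of 3262 bp, and the midpoints fell at a median of 58.8% of the way along them (quartiles 35.7 and 80). Cut into 3 equal parts from its 5′ end, the exon held 58 midpoints in the first part, 88 in the middle and 111 in the last. These parts include the coding sequence of the exon, where midpoints belong to another class. A lower count towards the 5′ end is thus partly set by the class, and the 3′ UTR sequence in each part was not measured. The median midpoint was 1216 bp from the end of the transcript, and 101 regions (39.3%) ran past that end into sequence downstream. In this class the exon filled a median of 98.2% of the region.

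The widest regions of this class by both antibodies were at ZNF143, SOX6, OLFML2A, NABP1 and KIAA1549L. At SOX6, a transcription factor of cartilage and muscle, the Abcam region covered 6376 bp at chr11:15965036-15971411, the CST region 4941 bp, and the nearest protein-coding TSS was 369858 bp away. At NABP1, a single-stranded DNA-binding protein of DNA repair, a region of 4795 bp (Abcam) and 4361 bp (CST) lay entirely within an 11064 bp last exon. That exon belonged only to a transcript other than the gene's canonical one. OLFML2A, an olfactomedin-domain protein, had an Abcam region of 4488 bp inside a last exon of 5075 bp, and a CST region of 5068 bp that ran past the end of that exon. The ZNF143 region was the widest of all at 7110 bp, but its last exon was 995 bp and exons made up only 17.4% of it. Exon thus made up the whole Abcam region at NABP1 and OLFML2A and a small part of it at ZNF143, a transcription factor bound at many promoters.

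Internal coding exons held 121 regions, and these looked different. The exon was short, with a median of 160 bp (quartiles 117 and 210), and was covered from end to end by the region in 117 of the 121 (96.7%). Exons filled a median of 15.3% of the region (quartiles 9.2 and 20.7), so most of its bases were intronic. At PTPRR, a receptor-type tyrosine phosphatase, a 5087 bp Abcam region surrounded a 269 bp exon and exons made up 5.29% of it. At TEAD3, a DNA-binding partner of YAP in the Hippo pathway, regions of 4092 bp (Abcam) and 4171 bp (CST) shared the end with the lower coordinate, around exon 2 of 13. The carnitine transporter SLC22A5 had regions of 3220 and 3507 bp around a 101 bp exon, and the axonemal motor DNAH11 had 2699 and 2883 bp around exon 23 of 82. Only 6 of the 121 exons were longer than 1 kb, among them the 8805 bp repeat exon of the mucin MUC3A, which held its whole 1655 bp region.

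**Figure D2:**
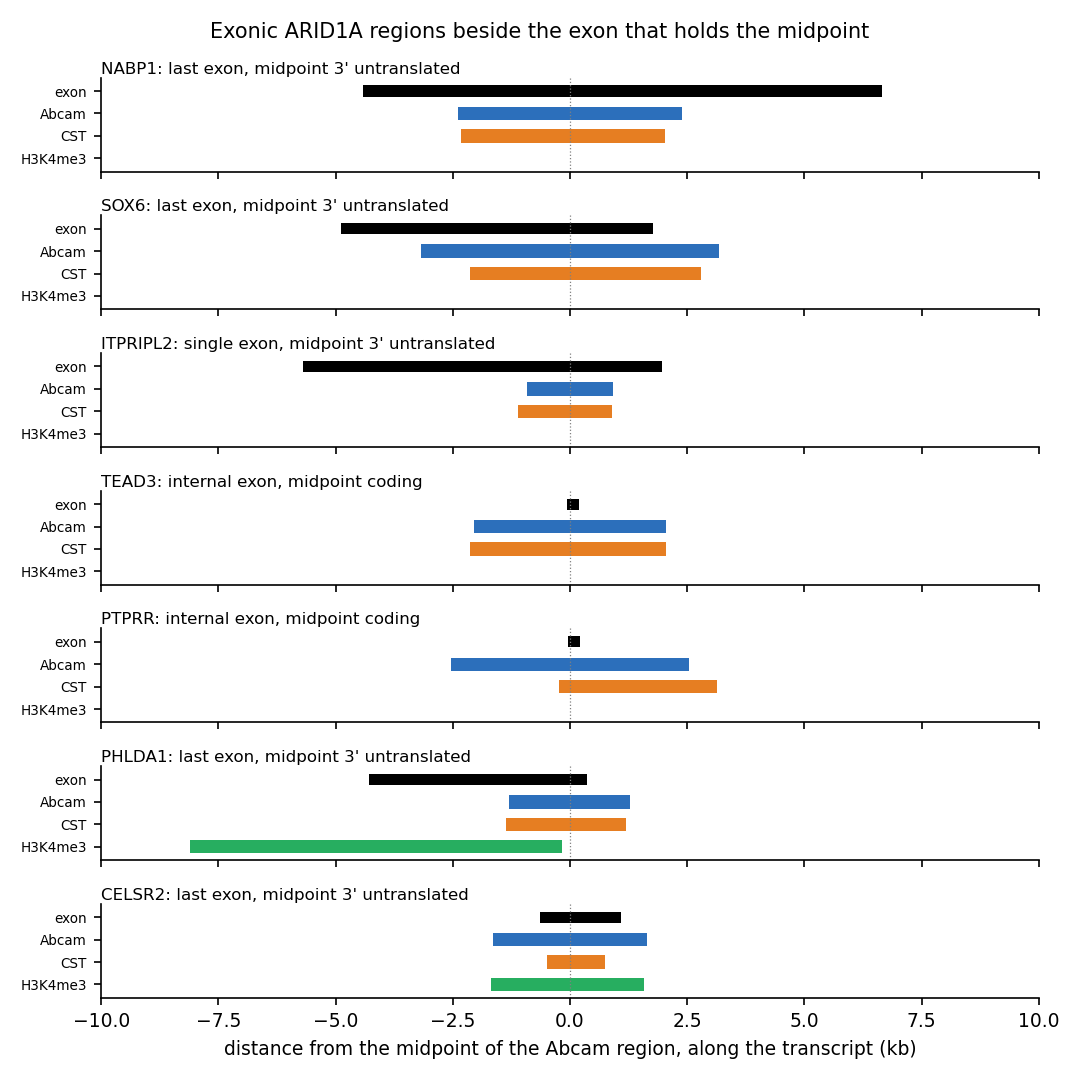
Exonic ARID1A regions at 7 genes, drawn to scale as distance in kb from the midpoint of the Abcam region along the transcript: the exon that holds the midpoint (black), the Abcam (blue), CST (orange) and H3K4me3 (green) regions that overlap. At PTPRR 2 CST regions overlapped, and only that with the larger overlap is drawn. The last exons of NABP1 and SOX6 and the single exon of ITPRIPL2 (its wider region, 1827 bp, is drawn) are wider than the regions, exons of TEAD3 and PTPRR are a small part of them, and H3K4me3 overlaps only the regions drawn for PHLDA1 and CELSR2. The NABP1 exon drawn belongs only to a transcript other than the gene's canonical one.

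The remaining classes were small. Internal 5′ UTR exons held 17 regions, with 18.8 midpoints per Mb of such sequence (10.9 to 30). The widest lay at TFPI, the inhibitor of tissue factor in coagulation, with an Abcam region of 2495 bp, at TATDN1 (2541 bp), TPRG1 (1932 bp), HPCAL1 (2408 bp), a neuronal calcium sensor, and MAPRE3 (2194 bp), a microtubule end-binding protein. PPARG, a nuclear receptor of urothelial and fat cell differentiation, was in this class too, with 1454 bp (Abcam) and 2324 bp (CST) at exon 3 of 9, 7275 bp from the nearest protein-coding TSS. At PPARG and the widest regions just named, the exon belonged only to transcripts other than the canonical one, compared with 13.6% of all 433 regions. At ZNF665, also in this class, it was canonical. The part of non-canonical transcripts in the density of this class was not tested. The coding part of last exons held 28 regions, the widest at MRGPRF, KMO, RNF19A, FAM13A and BCO1, which encode an orphan receptor, a kynurenine monooxygenase, a ubiquitin ligase, a protein with a RhoGAP domain and a carotenoid oxygenase. Both first-exon regions, at MTRFR (1349 bp) and PTPN3 (1037 bp), lay wholly within long 5′ untranslated first exons of transcripts other than the canonical ones. The 7 single-exon regions were all in 3′ UTRs, with 2 at ITPRIPL2 and others at HEXIM1, an inhibitor of the elongation factor P-TEFb, at the lactate receptor HCAR1 and at TEDDM1.

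How strictly the word exonic applied varied. Exon bases filled a median of 68.7% of the region over all 433 (range 2.05 to 100), 132 regions (30.5%) consisted of exon only, and 179 covered their whole exon. The exon belonged to the canonical transcript of its gene in 374 regions and only to another transcript in 59 (13.6%). The midpoint of the CST region lay in an exon in 313 (72.3%) and in the same exon in 309 (71.4%), with a median of 145 bp between both midpoints. Of the 593 Abcam regions that met every other condition, 73% were shared with CST, compared with 75.1% for those with an intronic midpoint.

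Per Mb of sequence, exonic midpoints were sparser than intronic ones. There were 6.37 per Mb of exon (5.78 to 7), 7.92 per Mb of intron (7.76 to 8.09) and 7.31 per Mb between genes (7.18 to 7.44). The gap to introns depended on the distance from a TSS. Between 2 and 5 kb there were 7.63 (6.06 to 9.49) exonic against 10.6 intronic midpoints per Mb, and between 10 and 50 kb 6.25 (5.39 to 7.21) against 9.25. Over 50 kb away the exonic value was 6.6 (5.14 to 8.36), an interval that holds the intronic value of 5.62 (5.39 to 5.86). Beyond 2 kb the exonic density thus changed little with distance while those of introns and intergenic sequence fell. Within 2 kb all 3 were low, since a region there has to avoid the window.

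**Figure D3:**
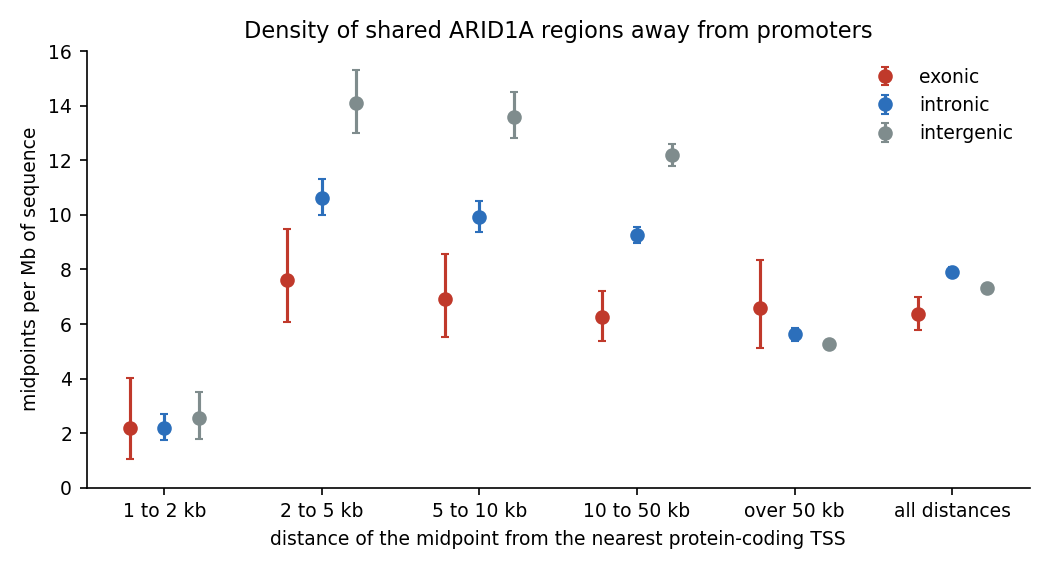
Midpoints of shared ARID1A regions per Mb of exonic, intronic and intergenic sequence outside promoter windows, by distance of the midpoint from the nearest protein-coding TSS, with 95% exact Poisson intervals. Exonic densities run from 6.25 to 7.63 beyond 2 kb, while intronic densities run from 10.6 down to 5.62.

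Exon length made little difference once sequence was counted. Merged exon stretches shorter than 200 bp held 6.12 midpoints per Mb and those of at least 3000 bp held 6.25, with 7.46 the highest value, for those from 200 bp to under 500 bp. Per stretch the share with a midpoint went from 0.0697% to 2.98% with length, and over all 173393 stretches it was 0.244%. Genes followed the same pattern when split into 4 equal groups by total exon length outside promoter windows. Of those with the shortest total 0.469% held a region, and of those with the longest 4.22%. The lowest group ran from 0 to 1403 bp, and a gene with 0 bp could not hold a region.

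Widths resembled those of other regions away from promoters. The median Abcam width was 1475 bp (range 341 to 7110), against 1567 bp for intronic and 1585 bp for intergenic regions, and the median CST width was 1400 bp against 1511 and 1512 bp. Exonic regions lay closer to a protein-coding TSS, at a median of 12056 bp compared with 21052 bp for intronic regions and 51380 bp for intergenic regions. In 286 (66.1%) the nearest TSS belonged to the gene of the exon. The farthest were the exonic regions of DPYD, a pyrimidine-degrading enzyme, at 469902 bp from any protein-coding TSS, SOX6 at 369858 bp and GLIS3, a zinc finger factor, at 300725 bp.

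The exonic regions were richer in GC than other regions away from promoters. Their median GC content was 45.9% (quartiles 40.2 and 52.2, range 31.7 to 70.3), against 42.8% in intronic and 43.5% in intergenic regions, and the gap to intronic regions was 3.09 percentage points (1.97 to 4.09, an interval on the exonic median). A GC content of 55% or more was reached by 86 exonic regions (19.9%), 6.21% of intronic and 6.29% of intergenic ones. Exon sequence as a whole has 45.9% GC and intron sequence 41.1%. The ends of the range were HPGD, a prostaglandin-degrading enzyme, at 31.7%, and NRTN, a ligand of the GDNF family, at 70.3%.

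Within a region, the exon part was more often the GC-richer one, most clearly at internal coding exons. In the 301 regions with both kinds of bases, the exon part had a median of 49.4% GC and the rest 45.8%, and the exon part was higher in 206. For internal coding exons the values were 52% and 44%, with the exon higher in 99 of 120. In regions with a 3′ UTR midpoint the exon part had a median of 45.7%, and a count of this kind was not made for them. Yet coding regions as a whole (46.3%) and 3′ UTR regions (45.8%) had nearly the same median, while the underlying coding and 3′ UTR sequence differed, at 51.1% and 42%. Over the 301 regions with both kinds of bases, those outside exons were also richer than in intronic regions, 45.8% against 42.7%. That gap was 3.05 points, against 3.09 points for whole regions. The latter covers all 433, including 132 made of exon only, so the sets differ. CpG dinucleotides, which are depleted in most of the genome and kept in CpG islands, reached 0.6 or more of the number expected from base composition in 24 exonic regions (5.54%), compared with 0.726% of intronic and 3.43% of intergenic regions.

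**Figure D4:**
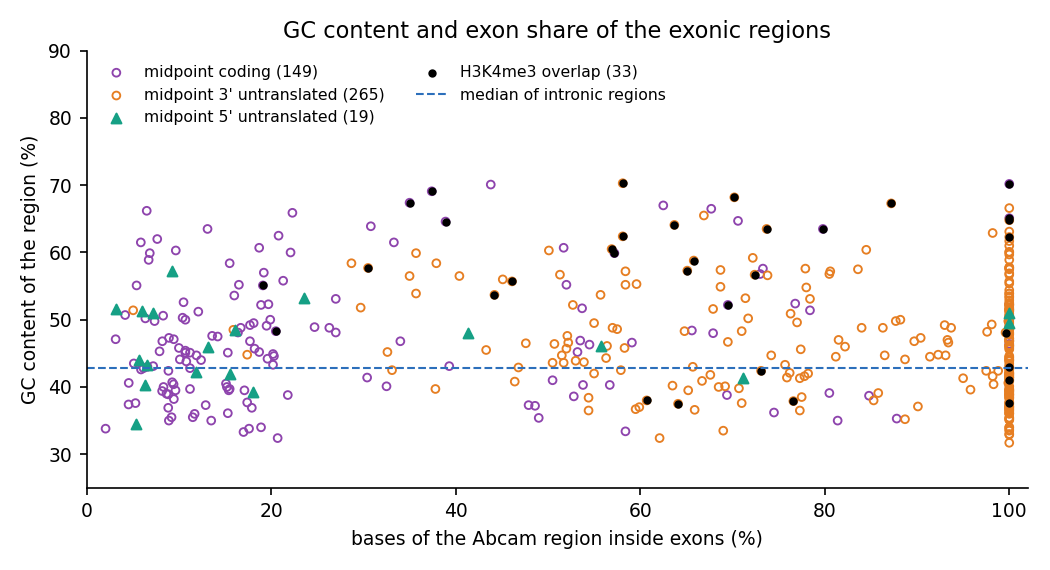
GC content of each of the 433 Abcam regions (vertical axis, %) against the share of its bases inside exons (horizontal axis, %), coloured by the coding state at the midpoint, with a black dot where H3K4me3 overlapped and a dashed line at the intronic median of 42.8%. Coding regions gather at low exon shares, 3′ UTR regions at high ones with 126 at the right edge, and the H3K4me3 overlaps lie mostly in the upper part, with a median of 58.8%.

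Words of transcription factors were searched on both strands in the central 300 bp of each region and compared with intronic and intergenic regions of the same kind. The AP-1 word was found in 23.3% of exonic regions (19.4 to 27.6), 26.7% of intronic and 26.1% of intergenic ones, while its letters in another order (TCACTGA) were found in 6.47%, 7.45% and 7.05%. It was present in 20.8% of coding regions and 24.5% of 3′ UTR regions. The GATA word AGATAA was found in 14.5% of exonic regions (11.4 to 18.2) and 20.5% of intronic ones, with 10.1% in coding regions. The TEAD word GGAATG was found in 21% of exonic regions, close to the 18.9% of its reordered control GAGATG, and 20.4% of intronic ones. The FOX word TGTTTAC (8.08%), the RUNX word TGTGGTT (5.54%) and the E-box CACGTG (3%) stood at 7.93%, 8.5% and 3.16% in intronic regions. The GRHL word AACNNGTT was in 6.7% and 7.95%, the CEBP word TTGCGCAA in 0.693% and 0.167%, and the p53 word in 0.693% and 0.726%. The ETS word ACCGGAAGT and the joint PPAR and RXR word were found in none of the 433 regions, which allows a share of up to 0.848%, and in 0.0447% and 0.0335% of intronic regions.

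The GC box GGGCGG, a word of SP and KLF factors, went the other way. It was found in 70 exonic regions (16.2%, 12.8 to 20), against 6.06% of intronic and 7.51% of intergenic regions. The median GC content was 56.3% in regions with the box and 44.4% in those without, and the part of base composition in its frequency was not tested. It stood in 14 of the 33 regions with H3K4me3 (42.4%) and in 56 of the 400 without (14%). Intronic regions showed the same split, at 30.5% with the mark and 5.41% without, as did intergenic ones, at 43.6% and 6.32%. The AP-1 word was distributed oppositely, in 1 of 33 (3.03%) and 100 of 400 (25%), as it was in intronic regions, at 12.9% and 27.1%.

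H3K4me3, the readout that the selection did not use, overlapped 33 of the 433 exonic regions, or 7.62% (5.3 to 10.5). The share over all 21378 shared regions away from promoters was 3.03%. Intronic regions reached 2.6% (233 of 8958), and the difference of 5.02 points (95% score interval 2.85 to 7.93) passed a two-sided Fisher's exact test with a Benjamini-Hochberg adjusted p of 1.25e-06 over 7 comparisons by place and distance. Against intergenic regions, at 3.18%, the difference was 4.44 points (2.27 to 7.35, adjusted p = 3.16e-05, Fisher's exact test). Most exonic regions thus did not overlap the mark, but overlap over all distances was more frequent than in introns or between genes.

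Distance from the TSS changed the comparison. Among regions whose nearer end was 2 to 5 kb from a protein-coding TSS, 20 of 83 exonic regions (24.1%) overlapped H3K4me3 and 6.32% of intronic ones (difference 17.8 points, 9.69 to 28.1, adjusted p = 3.15e-06, Fisher's exact test). From 10 to 50 kb the shares were 3.33% and 0.707% (2.63 points, 0.804 to 6.38, adjusted p = 0.0052, Fisher's exact test), and from 5 to 10 kb 5.13% and 1.6% (3.53 points, 0.29 to 10.9), which missed the threshold with an adjusted p of 0.0675 by Fisher's exact test. Under 2 kb only 3 of 27 exonic regions overlapped, against 26.7% of intronic ones, and the difference of -15.6 points (-24.2 to 1.78) was within counting error (adjusted p = 0.127, Fisher's exact test). Beyond 50 kb none of 65 exonic regions overlapped, which allows up to 5.52%, against 0.362% of intronic regions.

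**Figure D5:**
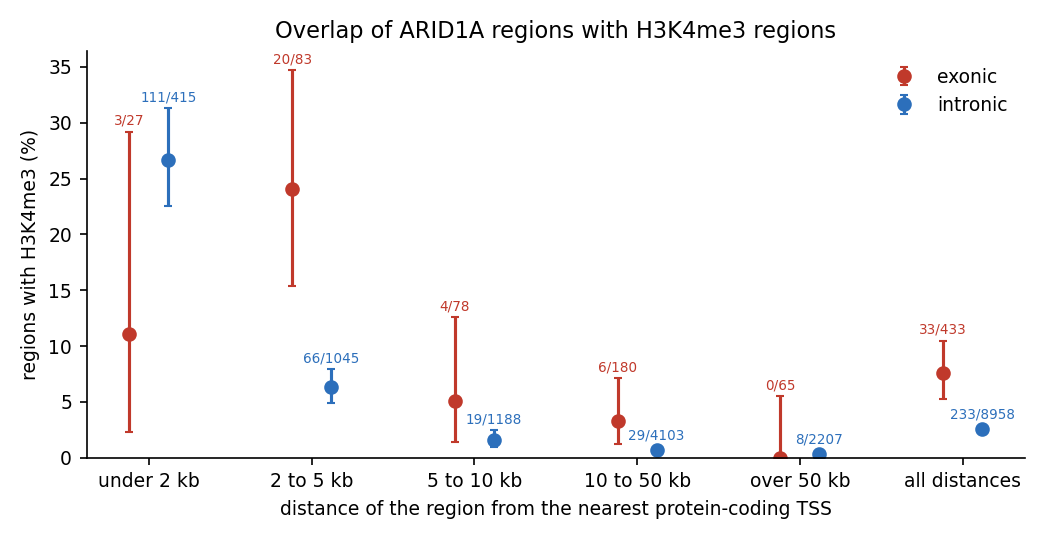
Share of exonic (red) and intronic (blue) ARID1A regions that overlapped an H3K4me3 region, by distance of the region's nearer end from the closest protein-coding TSS, with 95% exact binomial intervals and the counts printed above. The exonic share is 24.1% between 2 and 5 kb, where the intronic share is 6.32%, and 7.62% against 2.6% over all distances.

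The class of exon made no detectable difference at this number of regions. H3K4me3 overlapped 8.07% of last-exon and 5.76% of internal-exon regions (difference 2.31 points, -3.5 to 7, adjusted p = 0.705 over 2 comparisons, Fisher's exact test). It overlapped 6.71% of coding and 8.1% of untranslated regions (-1.39 points, -6.21 to 4.45, adjusted p = 0.705, Fisher's exact test). Internal 5′ UTR exons had 0 of 17, which allows up to 19.5%.

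Several measures moved with the overlap. Regions with H3K4me3 had a median of 58.8% GC and 1785 bp, and those without 45.3% and 1445 bp. The CpG ratio was 0.545 and 0.223. The start of a transcript outside the selection, mostly a non-coding transcript of a protein-coding gene or a lncRNA, lay within 1 kb of 19 of the 33 regions with the mark (57.6%) and 95 of the 400 without (23.8%). Such starts were near 26.3% of exonic, 12.1% of intronic and 13.4% of intergenic regions. Without them the exonic share with H3K4me3 was 4.39% (14 of 319) and the intronic share 2.01% (158 of 7873), a difference of 2.38 points (0.594 to 5.24) with an unadjusted p of 0.00813 by Fisher's exact test, and with them the shares were 16.7% and 6.91%. Among intergenic regions the share was 1.26% without such a start and 15.6% (13.9 to 17.5) with one, the latter inside the exonic interval of 10.3 to 24.8, and exonic and intergenic regions were not tested against each other within these strata. The part of GC content and width in the overlap was not tested.

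The H3K4me3 regions at these exons were of 2 sorts. In 11 of 33 (33.3%) the H3K4me3 region was long enough to reach a protein-coding promoter window, compared with 169 of 233 (72.5%) of the intronic overlaps. At IRF2BP2, a transcriptional corepressor, the ARID1A region in the 3′ UTR (2150 bp, 37.6% GC) lay inside an H3K4me3 region that ran from chr1:234604442-234612032, past the gene's start. PHLDA1, HEXIM1, one of the ITPRIPL2 regions, LRATD1 and the p53 target PMAIP1 were further cases, with regions 2 to 5 kb from a protein-coding TSS in the last or only exon. In the other 22 the H3K4me3 region stayed clear of promoter windows. These included the 3′ UTR of PRDM12, a factor of sensory neurons (63.5% GC, CpG ratio 0.816), SDR42E2 (3649 bp), CELSR2, an atypical cadherin of planar polarity, the sodium-proton exchanger SLC9A3 (68.2% GC, 25421 bp from a protein-coding TSS), ST3GAL2, a sialyltransferase (67.3% GC, 18600 bp), and the coding exons of CRYBG1 (63.5% GC, 27734 bp) and NECTIN4, an adhesion molecule of urothelial cells.

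The 433 regions fell on 415 of 19626 protein-coding genes, or 2.11%, and 16 genes held more than 1, of which 15 tied at 2. The selection used the same lists, so this is a description. Genes with a region had more exon sequence outside promoter windows, with a median total of 4725 bp per gene compared with 2674 bp for all other genes. SH3TC2, a protein of Schwann cell endosomes, held 4 regions in its 22753 bp last exon, of 690, 1387, 341 and 1994 bp, all between 59410 and 77933 bp from the nearest protein-coding TSS. The adjacent pair of 1387 and 341 bp met a single CST region of 1796 bp, so they are not independent. KCTD16 (1160 and 2263 bp in a 12027 bp exon), PPP1R12B, a myosin phosphatase subunit (1354 and 3265 bp in a 12229 bp exon), DCPS, a decapping scavenger enzyme (2021 and 1422 bp, which met a single CST region of 3935 bp), NDUFAF5 and ITPRIPL2 each held 2 in the same long exon. Both PPP1R12B regions also met the same CST region, of 3905 bp. Of all 433 regions, 8 shared their CST region with another. CAPN2, the catalytic subunit of a calpain, held 1 around internal coding exon 19 of 21 and 1 in the last exon, and LPP, a focal adhesion protein, and PLB1 held 2 in the last exons of different transcripts.

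Of 32 gene families examined, 21 held at least 1 exonic region. Over all genes 2.11% held a region and over all exons there were 6.37 per Mb, and the family counts below are a description read against these. Solute carriers, the membrane transporters, held the highest number, with 19 regions in 19 of 382 genes (4.97%) and 13.4 per Mb of their exons. Densities were higher in some families with 3 regions each, at 39.8 per Mb for tight junction, 29.2 for Notch, 24.4 for TNF, 22.7 for cytosolic ribosomal protein and 18.3 for Hippo genes. Other families with 3 regions were lower, at 11 for collagens and 6.58 for plakins and large cytoskeletal linkers. No interval was computed for these densities, which rest on very few regions. The 11 families without a region had 0.013 to 0.13 Mb of exon each, in which the overall density gives fewer than 1 region, so their zeros do not stand apart from the background. The widest were SLC38A11 (3700 bp in the 3′ UTR), SLC22A5 at an internal coding exon, the phosphate transporter SLC34A1 (2449 bp) and the peptide transporter SLC15A2 (2251 bp). The ZNF genes, although numerous, held only 4 in 556 genes (0.719%, 1.56 per Mb), at ZNF143, ZNF665, ZNF280D and ZNF774. Olfactory receptors held 1 in 390, at OR2C3. Reads mapping to several places had been removed, which can leave near-identical genes without regions, and its part in the counts of families with similar copies was not tested.

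Epithelial and cell contact genes were spread over several classes. The tight junction genes F11R (3571 bp Abcam, 1766 bp CST), OCLN (1436 and 1706 bp) and CLDN1 (1356 and 2051 bp) had theirs in the 3′ UTR of the last exon, without H3K4me3, 3 of 32 genes in that family. Cadherins held 4 in 109 genes, at internal coding exons of the desmosomal DSG4 (2366 bp) and DSC1 (1188 bp) and in the 3′ UTR of CELSR2 (3301 bp) and CDH26 (700 bp). The integrins ITGA10 (3119 bp) and ITGAE (1620 bp), the collagens COL18A1, COL12A1 and COL11A1, and the linkers PLEC, SPTBN4 and MACF1 were further members. Keratins (55 genes) and laminins (12 genes) held none.

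Signalling families gave a handful each. Among Hippo genes the 3 of 35 were TEAD3, the co-activator YAP1 (2465 bp Abcam and 1239 bp CST in the 3′ UTR, 42905 bp from a protein-coding TSS) and the secreted CCN4 (1654 bp). Notch genes held 3 of 26, all in 3′ UTRs: the repressor HES2 (3424 bp), the co-activator MAML2 (1342 bp) and the NUMB relative NUMBL (1185 bp). TNF receptors TNFRSF11A (1841 bp), TNFRSF19 (983 bp) and TNFRSF8 (979 bp) gave 3 of 45, and the receptor tyrosine kinases gave EPHB4 alone (2540 bp), 1 of 54. EGF and FGF ligands, DUSP and SPRY genes, WNT and Frizzled genes and class I PI3K genes held none.

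Chromatin and housekeeping families completed the list. SWI/SNF subunits held 1 of 30, at internal coding exon 3 of 11 of SS18L1 (548 bp, 1220 bp from a TSS), and PRC2 subunits 0 of 14. Histone lysine methyltransferases and demethylases held PRDM12 and SETD7 (728 bp in the 3′ UTR). Cytosolic ribosomal protein genes held 3 of 87, RPL27A, RPL37 and RPL10A, and all 3 overlapped H3K4me3 within 1426 to 3427 bp of a protein-coding TSS. AP-1 (22 genes), KLF and SP (27 genes), HOX (39 genes) and replication-dependent histone genes (69 genes) held none.

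Across chromosomes the regions per Mb of exon ranged from 1.15 on X, with 3 regions (0.237 to 3.36), to 10.4 on chromosome 20 with 17 (6.08 to 16.7). Chromosome 1 held most, 64 regions at 9.03 per Mb. Intronic regions also had their lowest density on X, at 2.91 per Mb, and their highest on chromosome 20, at 12.4.

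The promoter window sets where the list begins. The members closest to it were ANKRD40 (1143 bp from a TSS), DDX11 (1184 bp), C2CD4A (1202 bp), NDOR1 (1215 bp) and RAET1E (1220 bp), which overlapped no H3K4me3. Just outside stood shared regions with exonic midpoints at PAQR9, which had 33 bp in the window, TOM1L1 (58 bp), HCAR2 (76 bp), RASIP1 (88 bp) and AKT1S1 (91 bp), and of these HCAR2 and AKT1S1 overlapped H3K4me3.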

How the data were processed

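Per the methods and the submitters' processing notes, cutadapt trimming was followed by bwa-mem2 alignment to the human (hg38) and E. coli genomes, and the authors took out duplicates (Picard) and reads without a unique place (samtools), scaled replicates to the E. coli spike-in, called regions with SEACR and merged replicates with bedtools. Versions are not given in the sources used here. The methods name SEACR's relaxed mode and state that only a top fraction of its peaks was kept. The deposited lists name its stringent mode, so the threshold is uncertain, and merging keeps a region carried by a single replicate. Samples ran in a single CUT&RUN batch and in 2 library batches whose membership is not given, and the spike-in amount differs between sources.

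The deposited files give chromosome, start and end only. Regions off chromosomes 1 to 22 and X were left out (152 Abcam, 159 CST, 14 H3K4me3). Exons and TSSs were those of the 88858 protein-coding transcripts of GENCODE 44 (19626 genes). Where transcripts disagreed, canonical ones took precedence. Shares carry Clopper-Pearson intervals, densities exact Poisson intervals, and differences of shares Newcombe score intervals. Only H3K4me3 overlap was tested (Fisher's exact test, two-sided, with a Benjamini-Hochberg adjusted threshold of 0.05). The tests were tried on simulated data. Python 3.11.15, scipy 1.17.1, pandas 2.3.3, numpy 2.4.6, pysam 0.24.0 and matplotlib 3.10.9 were used.

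The members, families and words were chosen with earlier results of these data known. Named genes were the 5 widest regions of each exon class by the smaller of both antibodies' widths, 10 genes with most regions (after SH3TC2, 15 genes tied at 2 and the first 9 by alphabet were taken), up to 4 widest per family, the 5 widest with H3K4me3 or over 10 kb from a TSS, and the 5 nearest on each side of the window. Other genes (HPGD, NRTN, DPYD, GLIS3 and most of those listed for H3K4me3) were named after their values were seen. Alternatives were other promoter windows, overlap rules, transcripts, exon assignments, widths and GC windows, and starting from the CST list.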

Additional observations from a re-analysis of the deposited data

How the results depend on the processing

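Of 56 alternative values, 49 stayed on the same side of the test, within the 95% interval of the reported value or, for counts of regions and genes, within 1.5 times the reported count. Apart from the settings given next, region counts ran from 369 to 452 and gene counts from 353 to 433. Promoter windows around the TSSs of every transcript left 319 regions on 307 genes and moved the last-exon share to 71.8% and the coding share to 28.2%. Keeping Abcam regions of median width or more left 213 regions on 210 genes, with an exonic over intronic density ratio of 0.715 instead of 0.804. GC in the central 300 bp gave a difference of 4.33 points instead of 3.09, and counting a region with any exon base gave 1680. The H3K4me3 difference of 5.02 points stayed between 2.35, over 5 kb from every protein-coding TSS, and 7.75, for the wide regions, and passed the test each time. No paired analysis was possible because the authors' lists merge the replicates, and for the same reason no replicate could be left out and depth could not be weighed. Regions that narrowly missed the caller's threshold count here as absent.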
